A study of Homo sapiens with 12 samples.

Results

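Mitochondrial ribosomal proteins are the protein subunits of the ribosome inside mitochondria, and their genes were followed here across 6 single-cell clones of a lung cancer cell line. Members were the array probes kept as detected whose gene symbol begins with MRPL (large subunit) or MRPS (small subunit) followed by a number. The rule took 109 of the 21912 kept probes and 79 symbols. Of these, 76 were protein-coding genes among the 12250 genes tested, 3 were noncoding (MRPL20-AS1 and the pseudogenes MRPS31P5 and MRPL42P5), and 1 further symbol, MRPL23-AS1, had no kept probe. All 76 genes were detected on all 12 arrays, so none passed the filter only through the group in which it was high. By their place in the ribosome, 50 of the 76 belong to the large subunit and 26 to the small one. In the large group are MRPS18A and MRPS30, which sit in the large subunit despite their names. In addition, 45 have a bacterial homologue and 31 are specific to mitochondria.

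PC9 is a human lung adenocarcinoma line that carries an activating mutation of EGFR, the kinase that gefitinib inhibits. The labels call 1 clone, B7, sensitive to gefitinib and the remaining 5, D6, E1, E2, E3 and E6, tolerant. Each clone grew from 1 sorted cell and was measured on 2 Illumina bead arrays, which gives 2 arrays of sensitive and 10 of tolerant cells. All 12 samples carry the same treatment text, gefitinib at 0.4 to 2 µM for 14 days, while the design text also describes plates kept in DMSO, so drug exposure and response cannot be told apart. The sensitive state is represented by 1 clone. Nothing in the labels says that the 2 arrays of a clone came from separate cultures, so p-values between arrays measure only the spread between those arrays, which may be technical.

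The mitochondrial ribosome translates the few proteins that are still encoded by mitochondrial DNA, all of them subunits of the respiratory chain and ATP synthase. Its ribosomal RNAs come from mitochondrial DNA, but each of its proteins is encoded in the nucleus, made in the cytosol and imported. It descends from a bacterial ribosome that lost RNA and gained proteins, hence the split into bacterial homologues and mitochondria-specific members, and inherited defects in many of these genes cause respiratory chain disease.

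The 2 arrays of each clone gave like values, while array brightness differed between clones. Between a clone's 2 arrays Pearson's r was 0.995 to 0.997 across genes, which are not independent replicates. The 75th percentile of scanner intensity was 131 in B7, 118 in E2, 104 in E3, 97.9 in E6, 94.5 in E1 and 80.2 in D6, so B7 gave the brightest arrays. All 6 epithelial markers (KRT8, KRT18, KRT19, KRT7, EPCAM and CDH1) were detected on 12 arrays. Of 5 lung markers, NKX2-1 and SFTPC were detected on 0 arrays and the others on 3 to 5. Of the fibroblast, immune and endothelial markers, COL1A2, COL3A1, LUM, PDGFRB, PTPRC, CD3E, TYROBP, VWF, CLDN5 and TEK were detected on 0 arrays. COL1A1, CD14, CD68, PECAM1 and CDH5 were detected on 12, DCN on 7, MS4A1 on 5 and KDR on 1. The summed linear level of the measured fibroblast markers (2 of 6) was 122 to 150 intensity units on B7 arrays and 157 to 418 on tolerant arrays. It was 1194 to 1288 and 979 to 3568 for immune markers (3 of 6), and 260.0 to 277 and 294 to 490 for endothelial ones (2 of 6).

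Because the members moved together across clones, their promoters were read for 4 short motifs tied to nuclear control of mitochondrial genes or to growth. RefSeq (GRCh38.p14) gave an entry of 250 bases before to 50 after the start for 68 of the 76 members. Of these, 11 had more than 1 entry, and the first listed was read. CCGGAAG, a core bound by ETS factors such as GABP, was found on either strand in 28 of the 68 (41.2%), against 10.7% of all 27305 promoters of the same length. Those promoters, unlike the members, were not limited to genes detected on the arrays. AANATGGC, the YY1 core, was found in 25 (36.8%) against 6.82%. The 10-letter NRF1 palindrome, searched in 1 exact form, was found in 1 (1.47%) against 1.36%. Variant forms of the NRF1 motif were not searched, so its count does not say how common NRF1 sites are in these promoters. The E-box CACGTG was found in 6 (8.82%) against 7.43%. In 21 of the 68 none of the 4 was found. Among the 22 members with an entry and the lowest difference between tolerant clones and B7, 8 held the ETS core and 8 the YY1 core, and among the 22 with the highest difference 7 and 6 did. The following are the 250 bases before the start of the 3 members with an entry at each end of that difference, and of MRPL47, the lowest named member that holds both the ETS and the YY1 core, which was chosen after its values were seen. Capitals mark the motifs.
MRPS6, chr21:34073328-34073577, plus strand: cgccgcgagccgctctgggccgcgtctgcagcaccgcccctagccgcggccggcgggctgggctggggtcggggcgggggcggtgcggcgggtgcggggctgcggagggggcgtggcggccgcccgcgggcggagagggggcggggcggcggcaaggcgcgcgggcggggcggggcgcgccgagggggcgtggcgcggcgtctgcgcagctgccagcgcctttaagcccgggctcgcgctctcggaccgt
MRPL18, chr6:159789562-159789811, plus strand: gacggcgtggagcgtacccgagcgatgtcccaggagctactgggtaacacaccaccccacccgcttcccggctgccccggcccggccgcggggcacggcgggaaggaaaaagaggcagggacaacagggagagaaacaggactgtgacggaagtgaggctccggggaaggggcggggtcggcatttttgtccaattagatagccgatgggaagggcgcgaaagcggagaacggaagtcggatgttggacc
MRPS2, chr9:135500432-135500681, plus strand: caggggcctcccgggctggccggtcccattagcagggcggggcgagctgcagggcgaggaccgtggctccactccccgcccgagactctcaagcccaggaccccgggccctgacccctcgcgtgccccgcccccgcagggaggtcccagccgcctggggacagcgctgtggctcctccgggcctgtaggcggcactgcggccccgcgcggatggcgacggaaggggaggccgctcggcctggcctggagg
MRPL45, chr17:38296918-38297167, plus strand: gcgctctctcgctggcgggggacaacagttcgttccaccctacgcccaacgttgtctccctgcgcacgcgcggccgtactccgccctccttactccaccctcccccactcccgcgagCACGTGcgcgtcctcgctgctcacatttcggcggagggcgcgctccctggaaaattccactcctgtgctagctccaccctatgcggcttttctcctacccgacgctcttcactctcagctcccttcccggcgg
MRPS25, chr3:15065316-15065565, minus strand: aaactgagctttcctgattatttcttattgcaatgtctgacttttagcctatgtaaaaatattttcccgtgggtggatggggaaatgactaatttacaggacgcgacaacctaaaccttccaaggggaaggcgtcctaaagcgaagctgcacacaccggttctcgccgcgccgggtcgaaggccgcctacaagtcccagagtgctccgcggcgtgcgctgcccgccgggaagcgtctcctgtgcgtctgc
MRPS18A, chr6:43687792-43688041, minus strand: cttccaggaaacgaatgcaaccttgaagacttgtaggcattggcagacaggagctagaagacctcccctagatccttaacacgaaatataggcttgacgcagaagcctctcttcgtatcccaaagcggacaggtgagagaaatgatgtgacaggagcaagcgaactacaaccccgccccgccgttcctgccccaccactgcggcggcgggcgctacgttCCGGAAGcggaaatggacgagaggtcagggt
MRPL47, chr3:179604639-179604888, minus strand: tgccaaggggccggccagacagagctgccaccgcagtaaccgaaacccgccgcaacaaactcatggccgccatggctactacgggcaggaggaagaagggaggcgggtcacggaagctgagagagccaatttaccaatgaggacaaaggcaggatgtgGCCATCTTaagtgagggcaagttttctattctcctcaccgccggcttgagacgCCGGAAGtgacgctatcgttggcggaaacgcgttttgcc
MRPS6, MRPL18 and MRPS2, all low in the tolerant clones, and MRPS25, at the other end, held none of the 4 motifs in the entry read. For MRPS2 that entry lies inside the annotated gene, which begins at base 135499965. MRPL45 held the E-box, MRPS18A the ETS core, and MRPL47 both cores. MRPL45, MRPS18A and MRPL47 each also had a YY1 core in the 50 bases past the start, which are not printed. A match is a stretch of letters and not a measured binding site.

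Most members were lower in the tolerant clones than in B7, each by a small amount. On the log2 intensity scale, the mean of the 5 tolerant clones minus B7 was negative for 66 of the 76 genes and positive for 10, with a median of -0.43 and a range of -1.16 to 0.33, beside a median of 0.00 over all 12250 genes. With the clone as the replicate (limma on 6 clone means, 4 residual degrees of freedom), 0 of the 76 were higher and 0 lower at an adjusted p under 0.05, beside 1.40% of all genes higher and 1.44% lower. At an unadjusted p under 0.05, 0 members were higher and 14 lower (18.4%), beside 12.4% and 12.8% of all genes. The smallest adjusted p of a member was 0.0892, for MRPL41. The absence of calls depended on the clones and on the fit used. Without E2, the tolerant clone nearest to B7 in these same values, 9 of the 76 members were lower and 0 higher. Of all genes, 8.79% were then called lower and 8.56% higher. With the clone as a random block over 12 arrays, 7 members were lower and 0 higher, beside 6.48% and 8.09% of all genes. With the replicate number as a block as well, 3 were lower and 0 higher, beside 5.89% and 7.40%. Both block fits take arrays as units, with 1 correlation within clones shared by all genes (0.81 and 0.82). They therefore count more residual degrees of freedom than the fit of clone means.

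The bacterial homologues of the large subunit had the lowest median. The median difference was -0.48 in the large subunit, with 44 of 50 genes negative, and -0.36 in the small subunit, with 22 of 26 negative. It was -0.44 over the 45 bacterial homologues (39 negative) and -0.38 over the 31 mitochondria-specific genes (27 negative). By both divisions it was -0.52 for large subunit homologues, -0.40 for large subunit mitochondria-specific genes, -0.39 for small subunit homologues and -0.27 for small subunit mitochondria-specific genes. No test was made between these groups. The sign of the 10 positive members depended on scaling: with arrays scaled to 1 median, which moved the median of all genes by -0.20, all 76 were negative and the median member stood at -0.78, or -0.59 relative to all genes.

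**Figure D1:**
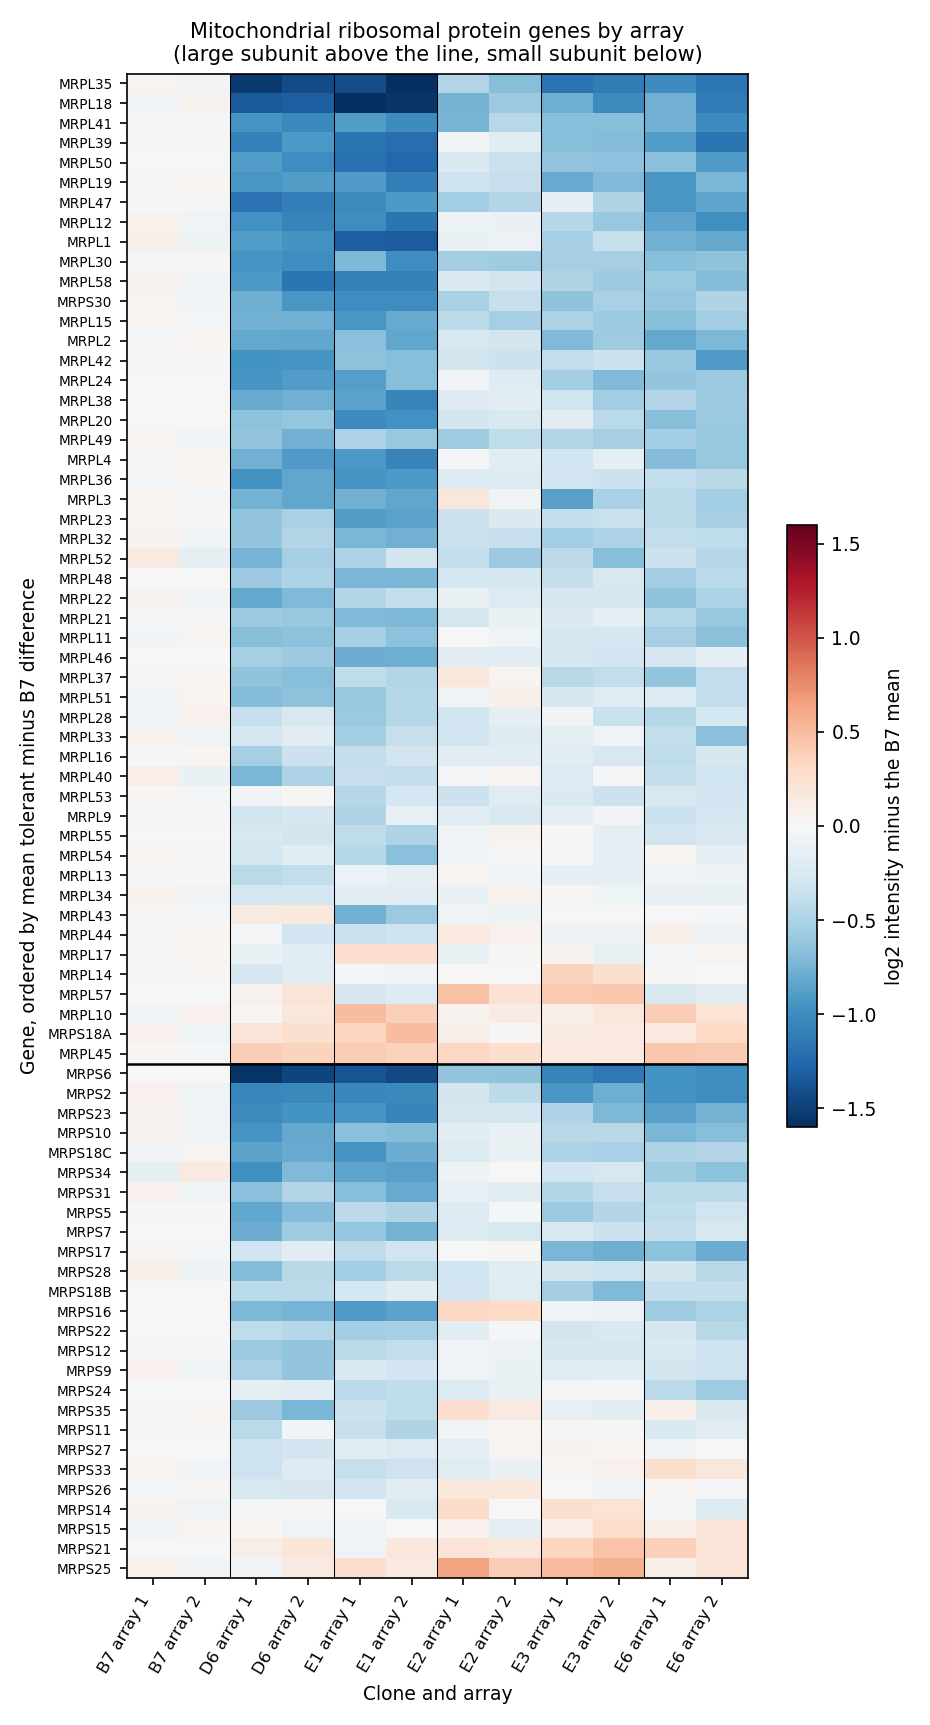
Each row is 1 of the 76 genes, each column 1 array, and the colour is the log2 intensity minus the mean of the 2 B7 arrays, ordered within the large (above the line) and the small subunit (below) by the tolerant minus B7 difference. The D6 and E1 columns hold the deepest blue, the E2 columns the palest, and the few red rows lie at the foot of each block.

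In the large subunit, the lowest member was MRPL35, a homologue of a bacterial protein. It stood at 11.77 and 11.69 log2 units on the B7 arrays and at a lowest, median and highest value of 10.10, 10.56 and 11.26 on the 10 tolerant arrays. Both B7 arrays lay above all tolerant ones, and the difference of -1.16 ± 0.36 (SE, 5 clones against 1), a 2.24-fold lower level, had a limma adjusted p of 0.115. Its other probes differed by -0.72 and -0.36. MRPL18, whose bacterial homologue binds a small ribosomal RNA at the crest of the subunit, stood at 12.53 and 12.65 in B7 and at 10.94, 11.51 and 12.01 in the tolerant clones. The groups did not overlap, and the difference was -1.09 ± 0.35 (limma adjusted p = 0.123), with -0.64 at its other probe. In both genes the highest tolerant arrays were those of E2, and the lowest were those of D6 and E1.

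MRPL41, a mitochondria-specific protein also described as a partner of BCL2, stood at 11.12 and 11.10 in B7 and at 10.08, 10.28 and 10.67 in the tolerant clones, again without overlap. It varied least between tolerant clones among the 6 lowest members (SD 0.17), and its difference was -0.82 ± 0.22 (limma adjusted p = 0.0892). MRPL39, which resembles a tRNA synthetase, stood at 10.87 and 10.92 in B7 and at 9.68, 9.99 and 10.86 in the tolerant clones. Here the higher E2 array lay just under the lower B7 array, and the difference was -0.80 ± 0.39 (limma adjusted p = 0.251). MRPL47, a protein near the mouth of the exit tunnel, differed by -0.76 ± 0.33 (adjusted p = 0.202), but by -0.06 at its other probe. MRPL12, a stalk protein also reported to bind the mitochondrial RNA polymerase, differed by -0.73 ± 0.38 (adjusted p = 0.275), and MRPL1, which forms the stalk where spent tRNA leaves, by -0.72 ± 0.42 (0.320).

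In the small subunit, the lowest members were MRPS6 and MRPS2, both with bacterial homologues. MRPS6 stood at 12.32 and 12.33 log2 units in B7 and at 10.76, 11.22 and 11.70 in the tolerant clones. All tolerant arrays were lower, with D6 lowest and E2 highest, and the difference was -1.13 ± 0.34 (2.19-fold lower, limma adjusted p = 0.110). MRPS2, mutated in an inherited respiratory chain deficiency, stood at 10.12 and 9.99 in B7 and at 9.02, 9.08 and 9.77 in the tolerant clones. E2 stood apart from the other tolerant clones, with 9.77 and 9.65 against 9.02 to 9.28, and the difference over 5 clones was -0.85 ± 0.29 (limma adjusted p = 0.139). Without E2, the genes called were MRPL35 (-1.31 ± 0.24, adjusted p = 0.0200), MRPS2 (-0.97 ± 0.19, 0.0211), MRPS6 (-1.25 ± 0.26, 0.0255), MRPL19, MRPL41, MRPL39, MRPL2, MRPL18 and MRPS23.

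At the other end, MRPL45 was the member whose 2 B7 arrays, 11.26 and 11.23, both lay below all 10 tolerant arrays, which spanned 11.40 to 11.69 with a median of 11.61. MRPL45 lies at the exit tunnel and ties the ribosome to the inner membrane. Its difference was 0.33 ± 0.19 (limma adjusted p = 0.308), with 0.20 at its other probe. Both B7 arrays lay above all tolerant arrays for 42 members (55.3%, beside 22.1% of all genes) and below them for MRPL45 alone (1.32%, beside 20.7%).

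MRPS25, a mitochondria-specific protein of the small subunit, stood at 8.12 and 8.01 in B7 and at 8.02, 8.30 and 8.70 in the tolerant clones. It was highest in E2 and E3, overlapped B7 in D6, and differed by 0.29 ± 0.24 (limma adjusted p = 0.489). MRPS18A differed by 0.22 ± 0.20 (0.518), MRPL10, the base of the factor-binding stalk, by 0.22 ± 0.21 (0.543), MRPS21 by 0.21 ± 0.20 (0.530) and MRPL57 by 0.09 ± 0.30 (0.882), each with overlapping groups. All of these 6 turned negative with median scaling, to between -0.00681 and -0.23, and MRPL57 also with the 75th percentile or the mean over its probes. The other probes differed by -0.02 for MRPL10, 0.53 for MRPS21 and -0.34 for MRPL57.

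**Figure D2:**
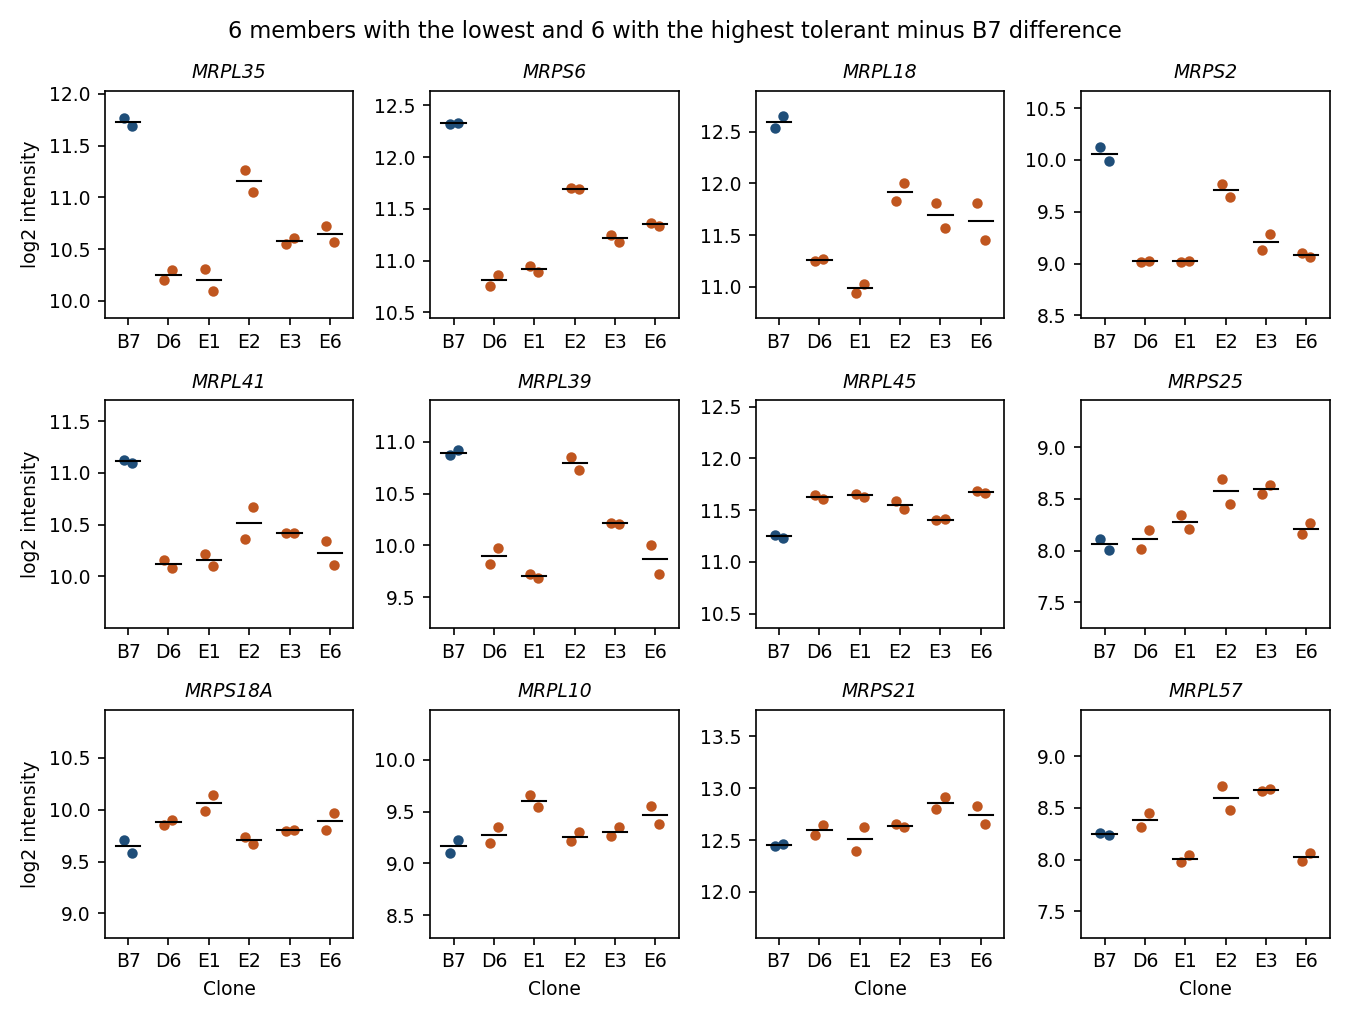
Log2 intensity of the 6 lowest (MRPL35 to MRPL39) and 6 highest (MRPL45 to MRPL57) members by the tolerant minus B7 difference; points are arrays, bars clone means, and all panels span the same height. In the first 6 panels B7 is highest and E2 comes next, while in the MRPL45 panel both B7 points (11.26 and 11.23) lie below all others.

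Clone by clone, the difference from B7 was negative for 69 of the 76 members in D6, 70 in E1, 66 in E6, 64 in E3 and 58 in E2 (49.6 to 50.4% of all genes), and the number of members called lower was smallest in E2. In limma over 12 arrays, D6 had 60 members lower and 2 higher than B7 (all genes 32.4% and 32.0%), and E1 had 64 and 4 (33.1% and 32.4%). E6 had 56 lower and 5 higher (31.2% and 30.1%), and E3 had 44 and 4 (30.0% and 29.5%). E2 had 24 lower and 4 higher (22.7% and 24.4%), a share of members lower (31.6%) nearer to that of all genes. Its 24 fell to 11 without the first B7 array, 13 without the second, and to 14 and 13 without the first and second E2 array. The median member stood at -0.61 in D6, -0.56 in E1, -0.43 in E6, -0.29 in E3 and -0.14 in E2, while the median of all genes lay between -0.01 and 0.00 in each. These comparisons share the 2 B7 arrays.

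In all 5 clones, 23 members were called lower (30.3%, beside 14.0% of all genes) and 0 higher (beside 14.6%). In D6, E1, E3 and E6, 43 were called lower (56.6%, beside 21.0%). The 23 were the lowest genes above apart from MRPL39, MRPL12 and MRPL1, together with MRPL50, MRPL19, MRPS23, MRPL30, MRPL58, MRPS30, MRPL15, MRPL2, MRPL42, MRPL20, MRPL49, MRPL36, MRPL23, MRPL32, MRPL52, MRPL48 and MRPS18B. The other probe of MRPL47, one of the 23, ranged from -0.32 in E6 to 0.23 in E3. Another probe of MRPL30 lay above B7 in E6 (0.17), and another of MRPL35 in E2 (0.09). Only 4 of the 23 belong to the small subunit: MRPS6, MRPS2, MRPS23 and MRPS18B. MRPL58 differs in role from the rest, since it releases peptides from stalled ribosomes as well as being a subunit, and it stood at -1.04 in D6, -1.08 in E1, -0.26 in E2, -0.53 in E3 and -0.64 in E6.

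The members called higher than B7 were few and differed by clone. They were MRPL45 and MRPS18A in D6, and MRPL45, MRPL10, MRPS18A and MRPL17 in E1. In E2 they were MRPS25, MRPL57, MRPS16 and MRPL45, and in E3 MRPS25, MRPL57, MRPS21 and MRPL14. In E6 they were MRPL45, MRPL10, MRPS21, MRPS18A and MRPS33. The 5 of E6 were 3 and 2 without the first and second B7 array and 2 without the first E6 array, and the 2 of D6 were 1 without any single array of B7, D6, E2 or E3. At the probe used, MRPL45 was thus higher in 4 clones, and in E3 it differed by 0.16 (limma adjusted p = 0.0805). Its other probe differed by -0.11 in E1, 0.18 in D6, 0.22 in E3, 0.28 in E2 and 0.43 in E6. With median scaling E2 had a count of 1 and the other 4 clones had 0. In 4 members (5.26%, beside 7.52% of all genes), MRPL14, MRPL57, MRPS16 and MRPS33, 1 clone was called higher than B7 and another lower, and the F test among tolerant clones passed. The other probe of MRPS33 lay above B7 in all 5 clones. That of MRPL57, detected on 6 arrays, stood at 0.01 in E2 and below B7 in the rest.

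**Figure D3:**
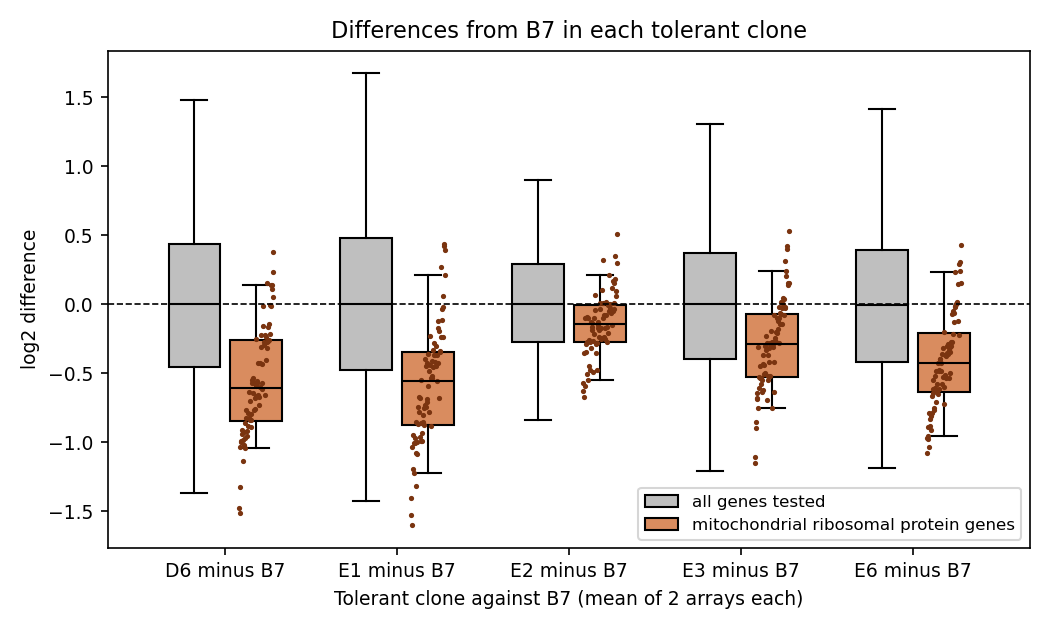
Log2 difference of each tolerant clone from B7 for all genes tested (grey) and for the 76 members (orange, with a point per gene); boxes span the quartiles, lines inside are medians, and whiskers run from the 5th to the 95th percentile. The orange medians run from -0.61 in D6 to -0.14 in E2, while the grey ones lie at 0.

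The tolerant clones differed among themselves in these genes. The moderated F test over arrays called 66 of the 76 members between the 5 tolerant clones (86.8%, beside 73.0% of all genes). Over the members, the root mean square SD was 0.086 log2 units between the 2 arrays of a clone and 0.26 between tolerant clones, and over all genes it was 0.14 and 0.36. Members therefore varied less between clones than genes at large, but with a common order. D6 or E1 was the lowest of the 6 clones in 65 members (beside 35.1% of all genes), D6 and E1 were the lowest pair in 47 (beside 14.6%), and B7 and E2 were the highest pair in 51 (beside 20.9%). B7 was the highest clone in 53 (beside 29.7%) and the lowest in 5 (beside 29.5%). Over the 6 clone means, which share 12 arrays and their brightness, the median Pearson r between 2 members was 0.74, and it was -0.00 between genes at large (every 10th gene). In 51 members r with the median member profile was above 0.8, while it was -0.97 for MRPS18A, -0.79 for MRPL10 and -0.73 for MRPL45.

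Set against the other 4 tolerant clones, E2 had 53 members higher and 1 lower (26.4% and 26.8% of all genes). The gene lower in E2 was MRPS18A. D6 had 3 higher and 44 lower (18.2% and 19.8%), and E1 had 4 and 42 (24.0% and 22.3%). E3 had 22 higher and 3 lower (15.5% and 16.3%), and E6 had 3 and 8 (16.5% and 16.4%). Several of these counts rested on single arrays. The 44 of D6 were 22 without its first array and 29 without its second. The 22 of E3 were 8 without its first array, 10 without its second and 14 without either B7 array, and with the authors' values they were 10. The 8 of E6 were 3 without its second array, 4 with median scaling or the authors' values and 3 without the filter on dim probes. The 3 higher in D6 were 1 without its second array, the 4 higher in E1 were 2 without either of its arrays, and the 1 lower in E2 was 0 without either of its arrays or without the second array of D6, E1 or E3. The 3 members higher in D6 were MRPS17, MRPL53 and MRPL43, and the 4 higher in E1 were MRPS18B, MRPL17, MRPL10 and MRPS18A. The 3 members lower in E3 were MRPS17, MRPS18B and MRPL45. The other probe of MRPS18B differed from B7 by -0.55 in E1 and -0.37 in E3, and was lowest in E6 (-0.59). That of MRPL45 differed by 0.22 in E3 and was lowest in E1 (-0.11).

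MRPS16, a small subunit protein mutated in an inherited respiratory chain deficiency, differed most among the tolerant clones (F = 99.2, limma adjusted p = 8.41e-07). Its log2 intensity was 10.86 and 10.87 in B7, 11.20 and 11.18 in E2, 10.81 and 10.77 in E3, 10.30 and 10.36 in E6, 10.15 and 10.12 in D6, and 9.97 and 10.01 in E1. It was thus called higher than B7 in E2 (0.32, adjusted p = 0.0035) and lower in D6 (-0.73), E1 (-0.88) and E6 (-0.54). MRPL1 came next (F = 59.9, adjusted p = 5.4e-06), at 9.86 and 9.71 in B7, 9.67 and 9.69 in E2, 9.25 and 9.41 in E3, 9.02 and 8.97 in E6, 8.89 and 8.82 in D6, and 8.47 and 8.46 in E1. The next in order were MRPS6 (F = 44.8), MRPL36 (F = 39.1), a very small protein with a bacterial homologue, and MRPL12 (F = 38.3). MRPL36 stood at 13.03 and 13.09 in B7, 12.84 and 12.86 in E2, and 12.11 to 12.23 in D6 and E1. All 5 followed the common order, with E2 highest and D6 or E1 lowest among the tolerant clones.

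Some members departed from that order. MRPS17, an RNA-binding protein of the small subunit, was lowest in E3 (12.78 and 12.73) and E6 (12.85 and 12.71), with 13.10 to 13.32 in D6 and E1, 13.50 and 13.52 in E2, and 13.54 and 13.47 in B7. At the probe used, MRPS18B was likewise lowest in E3, at 10.90 and 10.76 against 11.47 and 11.46 in B7. Its other probe was lowest in E6, differing from B7 by -0.59, with -0.55 in E1 and -0.37 in E3. MRPL43 was low in E1 alone, at 9.51 and 9.68, while B7 stood at 10.30 and 10.26 and the other tolerant arrays at 10.20 to 10.44. Its other probes showed less of this, differing between E1 and B7 by -0.30 and 0.19. MRPL53 was lower than B7 in E1, E2, E3 and E6, by -0.27 to -0.37, but not in D6 (-0.02, adjusted p = 0.888).

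MRPL46 and MRPS35 kept the common order among the tolerant clones. MRPL46 was lowest in E1 (10.09 and 10.10, against 10.88 and 10.88 in B7 and 10.71 on both E2 arrays). MRPS35 was lowest in D6 (10.11 and 9.95, against 10.66 and 10.72 in B7) and highest in E2 (10.96 and 10.84, not called against B7). MRPL17 departed from it and was highest in E1, at 11.97 on both arrays against 11.67 and 11.73 in B7. Its difference over the 5 clones was 0.01 ± 0.21 (limma adjusted p = 0.976). These genes belong to both subunits and both origins. MRPS33 was called higher in E6 (0.24) and lower in D6 (-0.26) and E1 (-0.35). The probes of MRPS33 lay on opposite sides of B7: the probe used differed by -0.10 between tolerant clones and B7, and its other probe by 0.61. Of 30 other probes in 24 genes, 25 had the same sign as the probe used and 5 the opposite, with medians of -0.34 for the other probes and -0.36 for those used.

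The remaining members are given by their place in the ribosome, chosen for their role after their values were seen. At the stalk that recruits translation factors, MRPL11 (-0.44 ± 0.28, limma adjusted p = 0.362) lay with MRPL12 below zero. MRPL10, the base of that stalk, differed by 0.22 at the probe used and by -0.02 at its other probe. Around the exit tunnel, MRPL22 differed by -0.44, MRPL23 by -0.52 and MRPL24 by -0.61, beside MRPL47 at -0.76 (-0.06 at its other probe) and MRPL45 at 0.33 (0.20 at its other probe). Near the peptide-forming centre, MRPL2 differed by -0.65 ± 0.25 (0.166) and MRPL3 by -0.54 ± 0.34 (0.358), the latter with E2 at 0.07 and D6 and E1 at -0.80.

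In the decoding part of the small subunit, MRPS12, homologue of the bacterial streptomycin target, stood at 13.52 and 13.49 in B7 and at 12.88, 13.20 and 13.44 in the tolerant clones, a difference of -0.33 ± 0.23 (limma adjusted p = 0.399). The 3 MRPS18 proteins are related to each other and occupy different sites. MRPS18C, at the site of the bacterial protein and counted here as its homologue, differed by -0.57 ± 0.29, MRPS18B, counted as mitochondria-specific, by -0.38 ± 0.21, and MRPS18A, counted likewise and placed in the large subunit, by 0.22 ± 0.20. MRPL44, which carries an RNA-cutting enzyme fold, differed by -0.09 ± 0.22, MRPS27 by -0.11 ± 0.20, MRPS26 by -0.07 ± 0.22 and MRPS15 by 0.06 ± 0.19, all within their errors. MRPS14 stood at 6.69 and 6.59 in B7 and at 6.40 to 6.94 in the tolerant clones, with the groups overlapping.

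The noncoding transcript MRPL20-AS1, measured by its own probe, stood at 9.85 and 9.75 log2 units in B7 and at 10.26, 10.55 and 10.88 in the tolerant clones. All 10 tolerant arrays were higher, by 0.74 ± 0.22 over clones (limma adjusted p = 0.110) and by 0.49 in E1 to 0.99 in E6, called in each of the 5 clones over arrays. MRPL20 itself stood at 11.55 and 11.54 in B7 and at 10.53, 10.95 and 11.37 in the tolerant clones, a difference of -0.57 ± 0.30 (adjusted p = 0.274). The pseudogenes MRPS31P5 (-0.32 ± 0.20) and MRPL42P5 (0.27 ± 0.20) lay near the background, detected on 7 and 11 arrays.

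Proteins of the mitochondrial ribosome that carry other symbols went the same way as the members, without passing the test. DAP3, a GTP-binding protein of the small subunit also known from cell death, stood at 10.83 and 10.80 in B7 and differed by -0.47 ± 0.26 (limma adjusted p = 0.301). GADD45GIP1 differed by -0.46 ± 0.26 (0.311) and CHCHD1 by -0.09 ± 0.22 (0.821). PTCD3 and AURKAIP1 had no kept probe here. With them, 7 lists of mitochondrial genes held 108 measured genes, of which limma called 0 in either direction at the clone level (2 higher and 30 lower at an unadjusted p under 0.05, beside 12.4% and 12.8% of all genes).

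Factors that build the ribosome or modify its RNA (26 measured of 30 listed symbols) had 21 negative genes and a median of -0.47. Their largest values were those of C1QBP, a chaperone-like matrix protein (13.43 and 13.45 in B7, difference -1.29 ± 0.48, limma adjusted p = 0.163), and of the GTPase NOA1, which went the other way (9.36 and 9.35 in B7, difference 1.03 ± 0.30, 0.106). Translation factors (13 of 14) had a median of -0.12, with 8 negative, and their largest differences were -0.82 ± 0.25 for MTFMT, which formylates the initiator tRNA (0.112), and -0.68 ± 0.25 for the elongation factor GUF1 (0.162). Aminoacyl-tRNA synthetases (21 of 22) had a median of -0.20 with 17 negative, the largest being MARS2 (-0.95 ± 0.39, 0.191) and LARS2 (-0.93 ± 0.22, 0.0737).

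Genes of mitochondrial transcription, RNA stability and DNA copying (16 of 16) had a median of -0.34 with 14 negative. The largest were the tRNA-processing nuclease ELAC2 (-1.15 ± 0.29, limma adjusted p = 0.0834) and the DNA helicase TWNK (-1.13 ± 0.36, 0.123). Protein import, by which ribosomal proteins enter the organelle (21 of 23), had a median of -0.54 with 16 negative, led by the outer membrane channel TOMM40 (-1.26 ± 0.48, 0.167) and the cochaperone GRPEL1 (-0.98 ± 0.30, 0.116). Of nuclear regulators (8 of 11, median -0.28, 6 negative), the coactivator PPRC1 differed by -1.24 ± 0.40 (0.123), MYC by -0.92 ± 0.28 (0.113), YY1 by 0.54 ± 0.34 (0.366), GABPA by 0.03 ± 0.30 (0.969) and NRF1, detected on 4 arrays, by -0.08 ± 0.29 (0.888). PPARGC1A had no kept probe.

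Ribosomal proteins of the cytosol did not share the pattern of the members. Of 71 measured, 26 differences were negative and 45 positive, with a median of 0.04 over the 5 clones and of 0.03 to 0.07 in the single clones. The F test among tolerant clones called 23 of the 71, against 66 of the 76 mitochondrial ones, beside 73.0% of all genes. No test was made of the difference between these families.

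**Figure D4:**
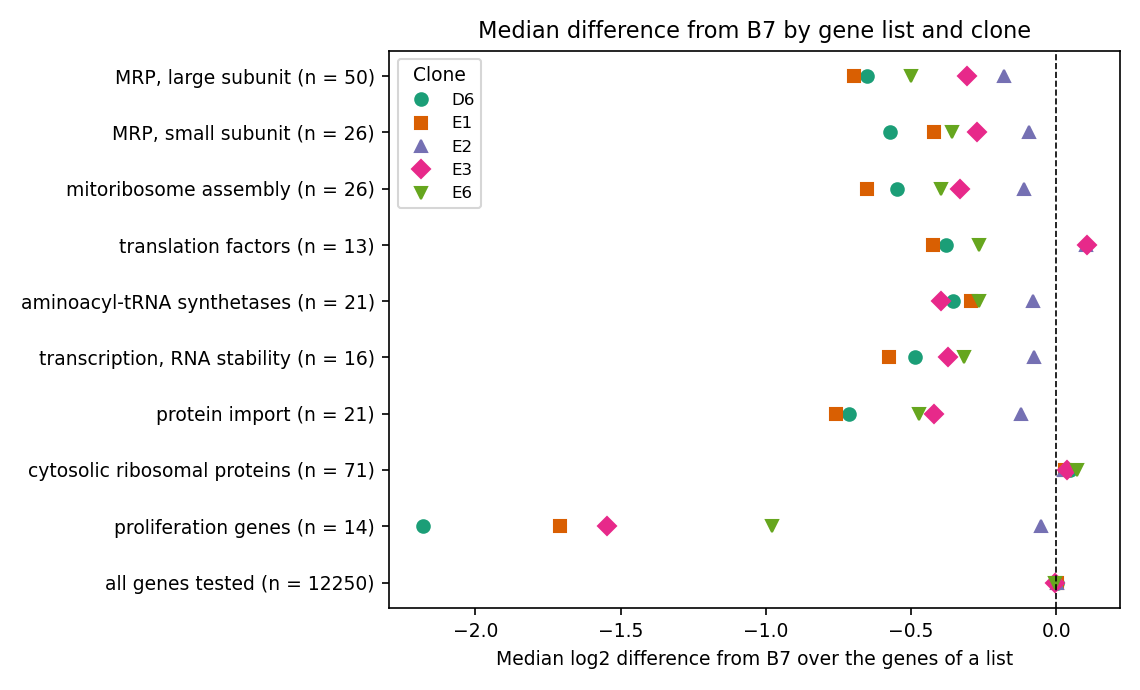
Median log2 difference from B7 over the genes of each list (n measured), with 1 symbol per tolerant clone; the dashed line marks no difference. Both subunits, assembly, transcription and import show D6 and E1 at the left and E2 nearest to 0, cytosolic ribosomal proteins lie at 0.03 to 0.07, and proliferation genes reach -2.18 in D6.

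Array brightness and proliferation genes moved with the members. The median member level was 10.73 log2 units in B7, 10.66 in E2, 10.45 in E3, 10.37 in E6, 10.24 in D6 and 10.10 in E1. The 75th percentile of intensity, given above, had the same order except that D6 lay below E1. The median difference of 14 proliferation genes from B7 was -0.05 in E2, -0.98 in E6, -1.55 in E3, -1.71 in E1 and -2.18 in D6, and over the 5 clones all 14 were negative, with a median of -1.36. Their summed linear level was 32937 to 33121 intensity units on the B7 arrays and 6831 to 31803 on the tolerant ones. The part of brightness and of proliferation in the members' differences was not tested. In bulk RNA, fewer cells of a kind and less RNA per cell cannot be told apart.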

How the data were processed

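RNA from 6 PC9 clones was measured on 12 Illumina arrays of 47229 probes; the labelled target was biotinylated cRNA (Ambion MessageAmp), per the labels. The deposited non-normalized file holds linear scanner intensity from which the authors had subtracted background, since 26.6 to 28.4% of values per array lie below 0, and its 12 detection p-value columns are empty (0 cells filled). The deposited processed values are also linear intensity, normalized between arrays with a floor of 20. The normalization method, software and genome build are not given in the sources used here.

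Scanner intensity was corrected by normexp (saddle fit, offset 16), quantile normalized and log2 transformed (limma 3.58.1, R 4.3.3). The detection limit of an array, 20.1 to 24.1 intensity units, was set from the root mean square of all values below 0 and a normal quantile (tail of 0.01), and a probe needed both arrays of some clone above it. Probes were named from the platform annotation, updated by Entrez number through RefSeq: 30112 had 1 gene, 8 several and 17109 none. Old and updated symbols gave the same 115 probes, of which 109 were kept. The brightest kept probe stood for its gene. Levels of different probes are not compared.

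The comparison of tolerant clones with B7 used 1 mean per clone (lmFit and eBayes, 4 residual degrees of freedom), the lone B7 being assumed to vary like the tolerant clones. Single clones were compared over 12 arrays (6 residual degrees of freedom), with a moderated F test among tolerant clones. Tests were 2-sided, with Benjamini-Hochberg adjustment over 12250 genes in each comparison and calls made under 0.05. The tests were checked on simulated data, where at the clone level they recovered large changes. Changes as small as those seen in most members were not simulated, so the check does not say whether such changes would be found. Replicate numbers do not pair the arrays: over 15 pairs of clones, deviations of same-numbered arrays correlated at -0.02 to 0.05.

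Named members are the 6 highest and 6 lowest differences, the 2 highest and 2 lowest of each clone against B7 and (if called) against the other tolerant clones, the 5 largest F values, and genes whose probes have opposite signs and lie over 0.5 apart. From other lists the 2 largest differences are given where none was called, and the regulators and ribosomal proteins under other symbols whatever their values. Members and lists were chosen with earlier results of these data known. Alternatives were other background corrections and scalings, the deposited processed values, all probes, probe means, an intensity trend, blocks by replicate number or clone, and omission of each clone and array. Precision is limited by having 12 arrays and 6 clones.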

Additional observations from a re-analysis of the deposited data

Results flagged for a closer look

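In 25 named members, the 5 tolerant clone means were searched for a clone far from the rest, and 3 were found. Chance gives about 1 in 20 groups, but some of the 25 were named for extreme values in single clones, MRPL43 and MRPL53 among them, so the count cannot be read against that share. MRPS2 stood at 9.71 log2 units in E2 and at 9.02 to 9.21 in the other tolerant clones. MRPL43 stood at 9.60 in E1 and at 10.21 to 10.43 in the others. MRPL53 stood at 9.87 in D6 and at 9.52 to 9.61 in the others.

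In 4 members, tolerant clones were called on opposite sides of B7 over arrays, and the F test among tolerant clones passed for each. That is 5.26% of the 76 members, beside 7.52% of all genes. MRPL14 differed from B7 by 0.31 in E3 and by -0.22 in D6. MRPL57 differed by 0.42 in E3 and 0.35 in E2 and by -0.24 in E1. The other probe of MRPL57, detected on 6 arrays, stood at -0.28 in E3, 0.01 in E2 and -0.43 in E1. MRPS16 differed by 0.32 in E2 and by -0.88 in E1. MRPS33 differed by 0.24 in E6 and by -0.35 in E1, but its other probe by 0.68 in E6 and 0.80 in E1. With median scaling 1 member in E2 and 0 in the other clones were called higher than B7.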

How the results depend on the processing

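Of 627 values of counts and medians under the alternatives, 541 stayed within 1.5 times the count or within the spread between replicates. Of 675 for named members, 644 kept their direction and side of the threshold, 14 passed it (without E2 or with the clone as a random block), 0 lost it and 17 changed sign.

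Scaling moved most. With median scaling the median member difference was -0.78 over the 5 clones, -1.18 in D6, -0.98 in E1, -0.30 in E2, -0.59 in E3 and -0.76 in E6. Members higher than B7 were 0 in D6, E1, E3 and E6 and 1 in E2, where 40 were lower. Against the other 4, D6 had 0 higher and 68 lower, E1 2 higher, E2 0 lower, E3 35 higher and E6 4 lower. In that scaling 24.4 to 36.9% of a clone's calls over all genes were higher, against 49.1 to 51.9%. The signs of MRPL45 (-0.0679), MRPS25 (-0.00681), MRPS18A (-0.15), MRPL10 (-0.17), MRPS21 (-0.12), MRPL57 (-0.23) and MRPL17 (-0.37) turned. With 75th percentile scaling the medians were -0.82 in D6, -0.73 in E1, -0.21 in E2, -0.41 in E3 and -0.54 in E6, members higher than B7 were 0 in D6 and 1 in E6, D6 had 1 higher and E2 0 lower against the other 4, and MRPL57 (-0.0107) and MRPL17 (-0.15) turned. Without background correction the E1 median was -0.59.

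With the authors' values, D6 had 1 higher and E2 14 lower than B7, E6 a median of -0.37, and against the other 4, E1 had 2 higher, E2 2 lower, E3 10 higher, and E6 5 higher and 4 lower. Without the filter, D6 had 1 higher, E2 15 lower and E6 1 higher than B7, and against the other 4, E1 had 2 higher, E2 0 lower, E3 11 higher and E6 3 lower. With the mean over probes, E1 had 2 higher, E2 2 lower, E3 1 lower and E6 6 higher against the other 4, and MRPL57 (-0.13), MRPL43 (0.0180) and MRPS33 (0.25) turned. With an intensity trend, E2 had 7 higher than B7, and E3 35 and E6 7 higher than the other 4. Without E1, MRPL43 (0.0180) and MRPL17 (-0.0516) turned. Members lower in the tolerant clones were 9 without E2, 7 with the clone as a random block and 3 with the replicate block as well (8.79%, 6.48% and 5.89% of all genes). The replicate block left 1 member higher in D6 than in B7 and changed no other count by over 1.5 times.

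Leaving out each array in turn gave 0 members called between tolerant clones and B7 and a median of -0.44 to -0.39. Against B7, higher and lower counts ran from 1 to 2 and 53 to 60 in D6, 3 to 4 and 57 to 65 in E1, 3 to 4 and 11 to 25 in E2, 4 to 4 and 36 to 44 in E3, and 2 to 5 and 47 to 57 in E6. The medians ran from -0.64 to -0.56 in D6, -0.60 to -0.56 in E1, -0.17 to -0.13 in E2, -0.32 to -0.28 in E3 and -0.46 to -0.41 in E6. Against the other 4, the counts ran from 1 to 3 and 22 to 43 in D6, 2 to 4 and 32 to 43 in E1, 40 to 53 and 0 to 1 in E2, 8 to 22 and 2 to 3 in E3, and 2 to 4 and 3 to 7 in E6. The F test called 60 to 66. MRPL17 ran from -0.0142 to 0.0392 and turned without the first B7 array, the second E2 array or the first E3 array. The cause of these changes was not tested. Signals near the detection limit understate differences, and 2 arrays per clone limit every comparison between clones.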
